A study of Mus musculus with 21 samples.

Results

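Levels were followed for 10 mouse genes, of 23250 measured, whose products restrain inflammatory signalling or shorten the life of cytokine mRNAs. They were chosen by name, matched through their Ensembl identifiers. A deubiquitinase-type group holds Tnfaip3, which encodes A20, with Tnip1, Tnip3, Cyld and N4bp1. That name is a label, since Tnip1, Tnip3 and N4bp1 are described below as encoding proteins that bind ubiquitin, not deubiquitinases. An RNA-decay group holds Zfp36, Zfp36l1, Zfp36l2, Zc3h12a and Zc3h12c. All 10 passed the filter on low counts, as did 13468 genes in all. Below, a gene is said to have changed where edgeR's quasi-likelihood test gave a Benjamini-Hochberg adjusted p, over those 13468 genes, under 0.05.

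The cells were bone-marrow-derived macrophages of C57BL/6J mice, grown for 7 days in medium with supernatant of a line that secretes GM-CSF, a growth factor for myeloid cells. The series text describes every group, controls included, as deficient in the mannose receptor, the product of Mrc1. Treated cells received FcMR, in which the extracellular region of the mannose receptor is joined to a human IgG1 Fc, or an isotype control, and were taken after 4, 12 or 24 h. Untreated cells (0 h) received neither. Each of the 7 groups holds 3 libraries, 21 in all, and no label says whether these came from separate mice or cultures, so p-values measure only the spread between these libraries. The study asked what soluble mannose receptor does to macrophages.

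A20 is an enzyme that edits ubiquitin chains on signalling proteins between cytokine or Toll-like receptors and NF-kappa-B. Tnip1 and Tnip3 encode ubiquitin-binding partners of A20, Cyld encodes a separate deubiquitinase that removes linear and lysine-63-linked chains, and N4bp1 encodes an inhibitor of cytokine responses that binds ubiquitin. The Zfp36 family (Zfp36 encodes tristetraprolin) binds AU-rich elements in 3′ untranslated regions and recruits the deadenylation machinery. Zc3h12a encodes the endoribonuclease Regnase-1, which cuts stem-loops in cytokine mRNAs, and Zc3h12c encodes a relative of it. Several of these genes are textbook NF-kappa-B targets, so that their mRNA can rise with the signal that their products restrain.

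Promoter letters are shown for 4 genes. Their stretch from 250 bases before to 50 after the start held a kappa-B consensus or a shorter kappa-B form. All 4 belong to the deubiquitinase-type group, but the form fixed in the plan also matched RNA-decay genes, as given below. The sequences are from RefSeq on GRCm38.p6, where 9 of the 10 genes had an entry (Zfp36l2 is the gene without one), and only bases before the start are printed. Capitals mark matches on either strand to the kappa-B consensus, or to the shorter form GGAATTTCC, and adjoining or overlapping matches are joined.
Tnfaip3, chr10:19015411-19015550, minus strand: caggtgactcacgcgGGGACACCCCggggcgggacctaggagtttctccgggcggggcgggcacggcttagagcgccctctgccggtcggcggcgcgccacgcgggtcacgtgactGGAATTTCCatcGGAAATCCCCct
Tnip1, chr11:54962972-54963013, minus strand: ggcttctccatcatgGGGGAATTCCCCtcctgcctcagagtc
Tnip3, chr6:65590329-65590368, plus strand: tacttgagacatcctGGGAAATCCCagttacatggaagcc
Cyld, chr8:88696858-88696897, plus strand: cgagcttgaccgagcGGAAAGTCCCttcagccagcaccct
The runs begin at -125, -24 and -12 from the start in Tnfaip3, at -58 in Tnip1, at -54 in Tnip3 and at -155 in Cyld. The consensus is present in 4.51% of 32851 promoter windows and the shorter form in 0.317%. The wider form GGGNNNNNCC, which was the one fixed in the plan, matched 50.8% of windows and separates nothing. Among RNA-decay genes it matched in Zfp36 (3 times), Zc3h12a (3) and Zc3h12c (5 and 2 in its windows). It did not match in N4bp1 or Zfp36l1. A further start entry of Tnfaip3 held no match to the consensus or the shorter form. Neither was found in the windows of N4bp1, Zfp36, Zfp36l1, Zc3h12a or Zc3h12c. The consensus and the shorter form were chosen after the promoters had been read, and a match is a description and not a binding site.

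AU-rich letters are shown because the decay proteins of the Zfp36 family recognise them and because several brakes carry them in their own mRNA. The 7-base core TATTTAT (T stands for U) occurred 3 times in the 3′ untranslated region of each of Zfp36, Zfp36l1 and Zfp36l2. It occurred 2 times in Cyld and Zc3h12c, 1 time in Tnip3, and not in Tnip1, N4bp1 or Zc3h12a. Of 11857 coding genes tested, 29.8% held at least 1, 10.6% at least 2 and 4.04% at least 3. The windows of Zfp36 and Zfp36l2 are from GENCODE M21 on GRCm38, written along the minus-strand mRNA, with the core in capitals.
Zfp36, chr7:28376969-28376991: gggcccttTATTTATgacgactt
Zfp36, chr7:28376954-28376976: gacgacttTATTTATtgtattaa
Zfp36, chr7:28376929-28376951: ttttatagTATTTATatatattg
Zfp36l2, chr17:84184917-84184939: atttaactTATTTATtatcttgt
Zfp36l2, chr17:84184869-84184891: ccatactgTATTTATcgagtatg
Zfp36l2, chr17:84184683-84184705: gtatgtaaTATTTATttcattaa

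Library totals ranged from 5532225 to 66729533 counts, a 12.1-fold range, so that 3 counts correspond to 0.045 to 0.542 CPM (counts scaled to library size), far under the levels of the 10 genes. Mrc1 held 0 to 11 counts in any library. Summed macrophage markers were 20322 to 35723 CPM, while summed T cell markers reached 0.644, B cell markers 5.98 and NK markers 1.95 CPM at most. Dendritic cell markers summed to 3456 to 3792 CPM in untreated cells and 2013 to 2193 CPM in isotype cells at 24 h. At 24 h summed macrophage markers were 31510 to 35723 CPM with isotype and 25758 to 27689 CPM with FcMR, and mast cell markers 9.42 to 13.6 and 19.2 to 24.1 CPM. Most of the macrophage sum was Lyz2, at 16643 to 30533 CPM over all libraries. No other macrophage marker exceeded the 1804 CPM of Itgam, so the sum mainly follows Lyz2. Granulocyte markers summed to 1331 to 1560 CPM in untreated cells and 177 to 226 CPM at 24 h. The part of these markers in the results was not tested, and in bulk RNA fewer cells of a type and less RNA per cell cannot be told apart.

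Libraries differed in how GC-rich transcripts read against GC-poor ones. This GC tilt, the log2 level of the 10% most GC-rich genes minus that of the 10% most GC-poor ones, each relative to its mean over libraries, was -0.832, -1.59 and 0.642 in the isotype libraries at 4 h. It was -0.731, 0.7 and 0.797 in the FcMR libraries at 12 h and -0.346, -1.26 and 0.41 in those at 24 h. The odd library of each of the first 2 groups, isotype 4 h replicate 3 and FcMR 12 h replicate 1, are also those whose title numbers stand in each other's place. For Tnip1, isotype 4 h replicate 3 held 363 CPM against 377 and 383 in FcMR 12 h replicates 2 and 3. For Tnfaip3 it held 608 CPM, beside 610 and 564 in its own group and 490, 492 and 473 in FcMR 12 h. Where leaving out both libraries, or correcting levels for GC content, changed a call of FcMR against isotype at 4 or 12 h, that value is given beside the result.

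**Figure D1:**
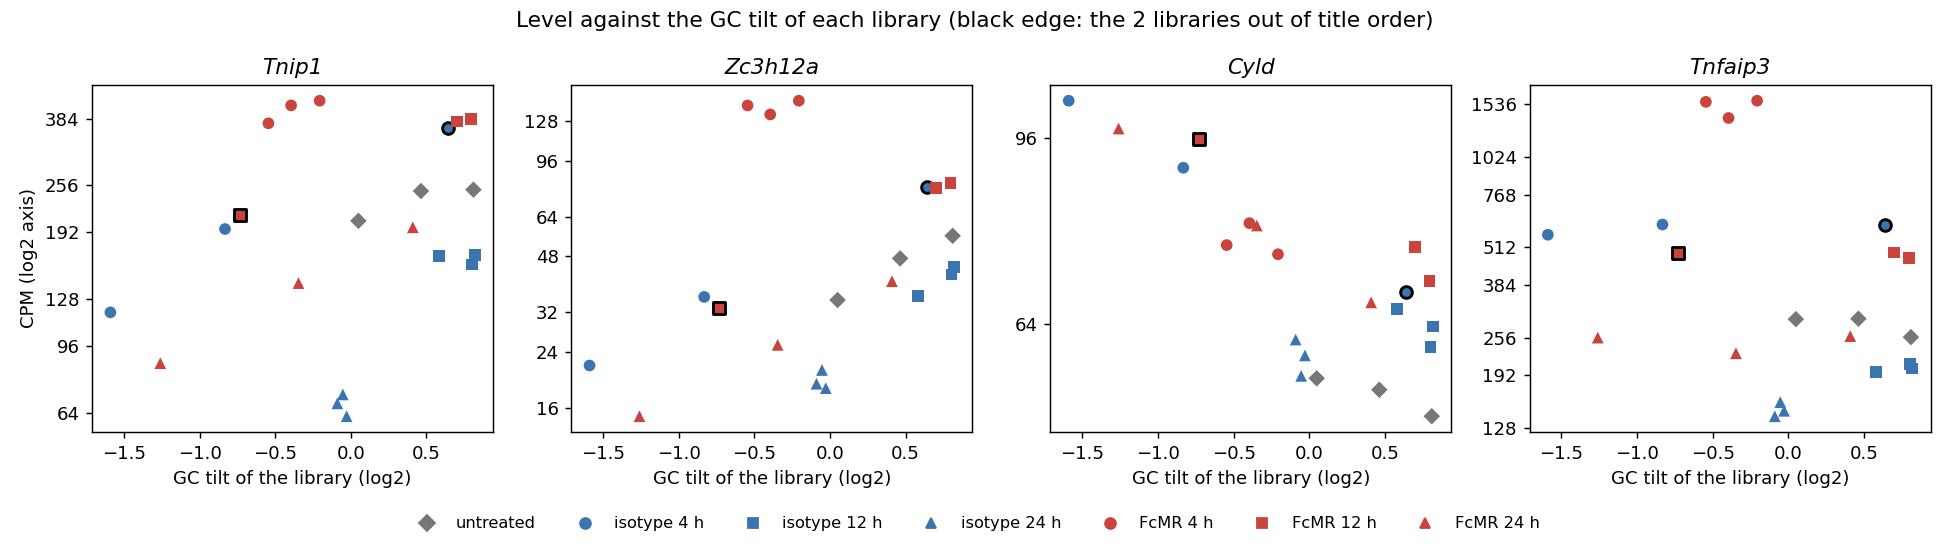
Level in CPM (log2 axis) of 4 genes against the GC tilt of each of the 21 libraries (log2), coloured by treatment and shaped by time. Tnip1 and Zc3h12a are lower at negative tilt within isotype 4 h, FcMR 12 h and FcMR 24 h, Cyld is higher there, and Tnfaip3 stays within its group's narrow range; the 2 black-edged libraries are isotype 4 h replicate 3 and FcMR 12 h replicate 1.

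FcMR was first compared with the isotype control at the same time. At 4 h, 5 of the 10 genes changed (Tnfaip3, N4bp1, Zc3h12a and Zc3h12c higher, Zfp36l2 lower), against 17.7% of all genes tested (8.62% higher and 9.13% lower). At 12 h, 6 changed (Tnfaip3, Tnip1, N4bp1 and Zc3h12c higher, Zfp36l1 and Zfp36l2 lower), against 16.1% of all genes (8.61% higher and 7.49% lower). At 24 h, 6 changed (Tnfaip3, Tnip1, Cyld, N4bp1 and Zc3h12c higher, Zfp36l2 lower), against 20.9% of all genes (11.4% higher and 9.44% lower). Tnfaip3, N4bp1 and Zc3h12c were higher and Zfp36l2 lower at every time.

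**Figure D2:**
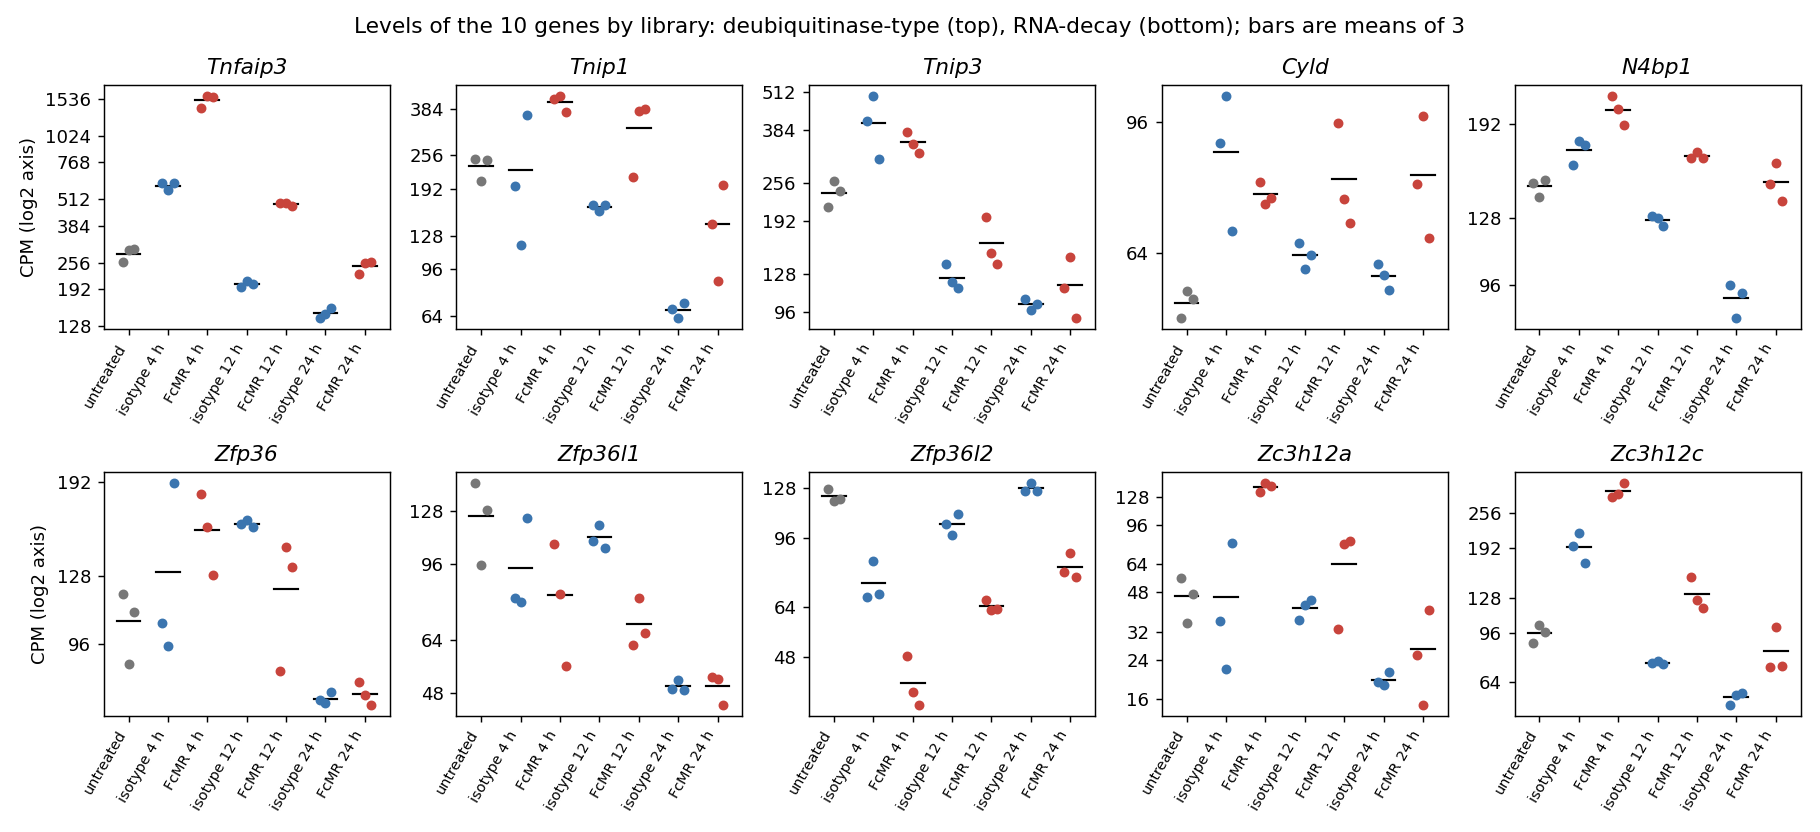
Level of each gene in CPM (log2 axis) in the 7 groups, with 1 point per library in replicate order, the mean of 3 as a bar, and untreated in grey, isotype in blue and FcMR in red. FcMR libraries of Tnfaip3 lie above the isotype libraries of the same time at 4, 12 and 24 h, and those of Zfp36l2 lie below them.

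Tnfaip3 (ENSMUSG00000019850.11, chromosome 10, 19000910 to 19015657, minus strand) was higher with FcMR at all 3 times, in every alternative tried. At 4 h its levels were 1382, 1578 and 1564 CPM with FcMR and 610, 564 and 608 CPM with isotype. The groups were far apart, 1508 ± 110 against 594 ± 25.9 CPM (SD, n = 3), a log2 fold change of 1.34 (SE 0.079, adjusted p = 4.31e-09). At 12 h the levels were 490, 492 and 473 CPM with FcMR and 197, 209 and 202 CPM with isotype, a log2 change of 1.26 (SE 0.079, adjusted p = 7.78e-09). By 24 h they were 227, 256 and 259 CPM with FcMR and 140, 146 and 156 CPM with isotype, and the difference had narrowed to 0.75 (SE 0.0787, adjusted p = 1.54e-06). The groups did not overlap at any time. Neighbouring groups in the order of its 7 levels were also separate, except FcMR 24 h (247 ± 17.4 CPM) and untreated (283 ± 22.2 CPM), whose libraries overlapped.

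Tnip1 (ENSMUSG00000020400.17, chromosome 11, 54910785 to 54962917, minus strand), whose product ABIN1 links A20 to its substrates, was the more variable partner. At 4 h it held 416, 428 and 373 CPM with FcMR and 196, 118 and 363 CPM with isotype. The FcMR libraries were all higher, but the log2 difference of 0.84 (SE 0.318) had an adjusted p of 0.077. That SE rests on a spread estimated for the gene over all 7 groups, not on the isotype 4 h libraries alone. Without isotype 4 h replicate 3 and FcMR 12 h replicate 1 it was 1.37 (adjusted p = 0.000778). Tnip1 lies at the 92.9th percentile of transcript GC content, and after GC correction the levels were 477, 455 and 460 CPM with FcMR and 269, 237 and 266 CPM with isotype, a log2 change of 0.85 with an adjusted p of 1.55e-07.

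Tnip1 rose at both later times. At 12 h it held 213, 377 and 383 CPM with FcMR and 166, 158 and 167 CPM with isotype, a log2 change of 0.99 (SE 0.318, adjusted p = 0.0412). That call was lost without FcMR 12 h replicate 2 or 3, without any single isotype 12 h library, or with no filter on low counts, and the adjusted p over all alternatives ran from 1.22e-09 to 0.128. The change was 1.22 without the libraries out of title order (adjusted p = 0.00127) and 1.23 after GC correction. At 24 h it held 141, 86.6 and 198 CPM with FcMR and 67.8, 62.7 and 71.6 CPM with isotype, a log2 change of 1.07 (SE 0.323, adjusted p = 0.0239). This call was lost without FcMR 24 h replicate 3 or without isotype 24 h replicate 1 or 2, with an adjusted p of up to 0.104.

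Tnip3 (ENSMUSG00000044162.12, chromosome 6, 65525313 to 65634040, plus strand), which encodes ABIN3, passed the test at no time. With FcMR and with isotype it held 349 ± 28.1 and 405 ± 95.1 CPM at 4 h, 162 ± 31.5 and 125 ± 11.7 CPM at 12 h, and 118 ± 27.4 and 102 ± 4.46 CPM at 24 h (SD, n = 3). The log2 differences were -0.21 (95% interval -0.58 to 0.15), 0.38 (0.0078 to 0.75) and 0.22 (-0.16 to 0.59). After GC correction the 12 h difference was 0.23 with an adjusted p of 0.0246, and the 4 h one -0.08. Without the libraries out of title order the 4 h difference was -0.38 (adjusted p = 0.0674).

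Cyld (ENSMUSG00000036712.15, chromosome 8, 88697028 to 88751945, plus strand) passed the test at 24 h and, with all libraries and no GC correction, not at 4 or 12 h. At 24 h it held 79.3, 97.9 and 67.1 CPM with FcMR and 61.9, 59.8 and 57.2 CPM with isotype. Every FcMR library was higher, for a log2 change of 0.45 (SE 0.144, adjusted p = 0.0323), but 8 of 17 alternatives lost the call, among them the omission of FcMR replicate 1 or 2 or of any isotype library. Its highest FcMR library was also the one with the lowest GC tilt, and its transcripts are GC-poor (8.76th percentile). After GC correction the 24 h levels were 77.5, 76.8 and 80.6 against 64, 64.5 and 59.2 CPM, a log2 change of 0.32 with an adjusted p of 5.37e-05. At 4 h it held 76.7 ± 2.67 CPM with FcMR and 87.5 ± 17.9 CPM with isotype (SD, n = 3), a difference of -0.19 that did not pass the test (adjusted p = 0.426). Without the libraries out of title order it was -0.34 (adjusted p = 0.0429), and after GC correction -0.07 (adjusted p = 0.341). The 12 h levels were 95.8, 75.7 and 70.3 CPM with FcMR and 66.1, 60.9 and 63.7 CPM with isotype, which did not overlap, a difference of 0.34 (SE 0.143, adjusted p = 0.129). It was 0.20 after GC correction (adjusted p = 0.00482) and 0.20 without the libraries out of title order (adjusted p = 0.334).

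N4bp1 (ENSMUSG00000031652.11, chromosome 8, 86808160 to 86885258, minus strand) differed least at 4 h and most at 24 h. The 4 h levels were 216, 204 and 191 CPM with FcMR and 161, 178 and 175 CPM with isotype, a log2 change of 0.25 (SE 0.0754, adjusted p = 0.0262). This small change was lost without FcMR 4 h replicate 1 or 2, without isotype 4 h replicate 1, or with only the libraries compared (adjusted p up to 0.175). At 24 h it held 148, 162 and 138 CPM with FcMR and 96.1, 83.5 and 93.1 CPM with isotype, a log2 change of 0.72 (SE 0.076, adjusted p = 1.61e-06). At 12 h the change was 0.39 (SE 0.0752, adjusted p = 0.00108), and the groups were separate at all 3 times.

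**Figure D3:**
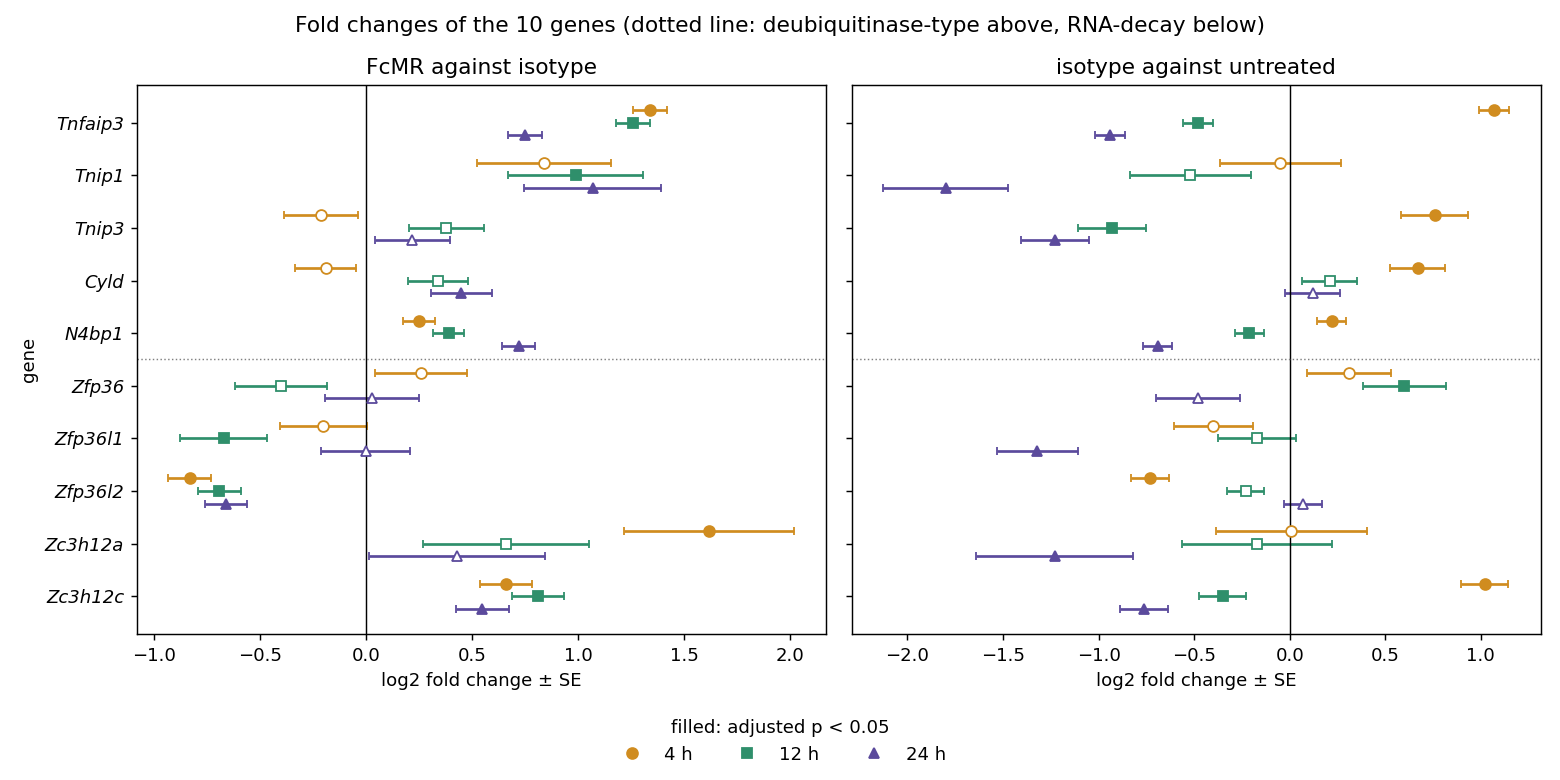
Log2 fold change with its SE for each gene, FcMR against isotype on the left and isotype against untreated on the right, at 4, 12 and 24 h (filled where the adjusted p is under 0.05). With FcMR every filled symbol of the deubiquitinase-type genes lies to the right of 0, while the RNA-decay genes hold filled symbols on both sides.

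Of the tristetraprolin family, Zfp36 (ENSMUSG00000044786.6, chromosome 7, 28376784 to 28380253, minus strand) did not pass the test at any time, with log2 differences of 0.26 (95% interval -0.20 to 0.72) at 4 h, -0.40 (-0.86 to 0.06) at 12 h and 0.03 (-0.44 to 0.50) at 24 h. Its levels at 4 h were 182, 158 and 129 CPM with FcMR and 105, 94.9 and 191 CPM with isotype, where replicate 3 exceeded every FcMR library. Without the libraries out of title order the 4 h difference was 0.65 (adjusted p = 0.00157), and after GC correction it was 0.22 (adjusted p = 0.267).

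Zfp36l1 (ENSMUSG00000021127.7, chromosome 12, 80107754 to 80113013, minus strand) was lower with FcMR at 12 h. It held 62.2, 80.1 and 66.5 CPM with FcMR and 109, 119 and 105 CPM with isotype, a log2 change of -0.67 (SE 0.206, adjusted p = 0.0328). The groups were apart, but 8 of 17 alternatives lost the call, among them GC correction and the omission of FcMR 12 h replicate 1 or 3 or of any isotype library, with an adjusted p of up to 0.106. The change was -0.51 after GC correction (adjusted p = 0.0545) and -0.60 without the libraries out of title order (adjusted p = 0.0538). Zfp36l1 levels at 4 h were 81.6 ± 25.9 CPM with FcMR and 93.9 ± 25.2 CPM with isotype, and at 24 h 49.8 ± 4.05 and 49.9 ± 1.49 CPM (SD, n = 3), and neither difference passed the test. The 4 h difference of -0.20 was 0.05 without the libraries out of title order.

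Zfp36l2 (ENSMUSG00000045817.8, chromosome 17, 84183931 to 84187947, minus strand) was the gene that fell with FcMR throughout. At 4 h it held 48.2, 39.2 and 36.3 CPM with FcMR and 68.1, 83.9 and 69.1 CPM with isotype. This was a log2 change of -0.83 (SE 0.102, adjusted p = 1.8e-05). At 12 h it held 66.9, 63.1 and 63.3 CPM against 104, 97.3 and 110 CPM, a change of -0.69 (SE 0.0991, adjusted p = 7.22e-05), and at 24 h 78.4, 87.6 and 76.4 CPM against 126, 132 and 126 CPM, a change of -0.66 (SE 0.0992, adjusted p = 8.07e-05). Every FcMR library was below every isotype library of its time. GC correction left -0.53 at 12 h with an adjusted p of 0.0543. It put the FcMR 12 h libraries at 76.7, 54.2 and 53 CPM, so that their SD went from 2.11 to 13.4 CPM. The SD of the isotype 12 h libraries went from 6.34 to 3.94 CPM. The calls at 4 and 24 h stood in all 17 alternatives.

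Zc3h12a (ENSMUSG00000042677.7, chromosome 4, 125118423 to 125127840, minus strand) rose at 4 h. At 4 h it held 134, 148 and 143 CPM with FcMR and 35.8, 21.8 and 79.5 CPM with isotype. All FcMR libraries were higher, for a log2 change of 1.62 (SE 0.401, adjusted p = 0.00864), which was 1.62 after GC correction (adjusted p = 1.32e-05) and 2.29 without the libraries out of title order (adjusted p = 5.33e-05). In a fit of only the 6 libraries compared the adjusted p was 0.0647. At 12 h it held 33, 78.7 and 81.5 CPM with FcMR and 36, 42.1 and 44.4 CPM with isotype. Replicate 1 lay below all isotype libraries, and the difference of 0.66 (95% interval -0.17 to 1.48) did not pass the test. It was 0.97 (adjusted p = 0.0188) without the libraries out of title order and 0.78 (adjusted p = 0.00921) after GC correction. At 24 h the levels were 26.8 ± 12.6 against 19.6 ± 1.34 CPM (SD, n = 3; adjusted p = 0.541).

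Zc3h12c (ENSMUSG00000035164.8, chromosome 9, 52111344 to 52168572, minus strand) was higher with FcMR at each time. Its 4 h levels were 292, 299 and 328 CPM with FcMR and 195, 217 and 170 CPM with isotype, a log2 change of 0.66 (SE 0.123, adjusted p = 0.00101). At 12 h it held 151, 126 and 118 CPM against 74.7, 76.4 and 74.3 CPM, a change of 0.81 (SE 0.123, adjusted p = 0.000124). At 24 h it held 72.7, 101 and 73.3 CPM against 53.2, 57.5 and 58.7 CPM, a change of 0.55 (SE 0.125, adjusted p = 0.00369). The groups were separate at the 3 times and the calls stood in all alternatives. The spans of Tnip1, Cyld, Zfp36, Zfp36l1, Zfp36l2 and Zc3h12c, introns included, each overlap a gene annotated on the other strand. Whether exons of these pairs overlap was not checked, and no source states strand-specific counting. Whether any reads of such pairs were mixed is therefore not known.

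The isotype libraries were next compared with untreated cells, which are shared by the 3 comparisons. The isotype libraries also serve as controls for FcMR. Untreated cells were taken at 0 h, and no untreated library of a later time is listed. Time in culture and the control protein therefore cannot be told apart in these comparisons. At 4 h, 6 of 10 genes changed, against 35.6% of all genes (20.4% higher and 15.2% lower). Tnfaip3 rose from 283 ± 22.2 to 594 ± 25.9 CPM (log2 1.07, SE 0.0787, adjusted p = 6.53e-09), and Zc3h12c from 95.4 ± 6.82 to 194 ± 23.7 CPM (1.02, SE 0.124, adjusted p = 3.66e-06). Tnip3 (0.76), Cyld (0.67) and N4bp1 (0.22) rose as well, and Zfp36l2 fell by 0.73 on the log2 scale. After GC correction the changes were 0.38 for Tnip3 (adjusted p = 0.000269), 0.29 for Cyld (adjusted p = 9.6e-05), 0.10 for N4bp1 (adjusted p = 0.266) and 0.66 for Zc3h12c (adjusted p = 6.64e-07). Zfp36, at 0.31 as measured (adjusted p = 0.297), was at 0.52 after GC correction (adjusted p = 0.00534) and at -0.07 without the libraries out of title order (adjusted p = 0.662). The N4bp1 call was lost in 10 of 17 alternatives, among them the omission of untreated replicate 1 or 2 or isotype 4 h replicate 2 or 3. The Zfp36l2 change was -0.43 after GC correction (adjusted p = 0.089). That correction took the SD of Zfp36l2 from 8.86 to 29.6 CPM in isotype 4 h and from 4.59 to 3.59 CPM in untreated cells. Zfp36l1 passed the test only where isotype 4 h replicate 3 was left out or the authors' factors were used (-0.64, adjusted p = 0.0184, without that library), and Tnip1 differed by -0.049 as measured but by 0.39 after GC correction (adjusted p = 0.000439).

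At 12 h in isotype, 5 genes changed against 41.6% of all genes (22% higher and 19.6% lower). Zfp36 rose from 106 ± 15.9 to 160 ± 2.48 CPM (log2 0.60, adjusted p = 0.0358). Tnfaip3 (-0.48), Tnip3 (-0.93), N4bp1 (-0.21) and Zc3h12c (-0.35) were below untreated cells. Only Tnfaip3 and Tnip3 kept their call without untreated replicate 3 or without any 1 isotype 12 h library, where the count was 2, and without untreated replicate 2 it was 3. At 24 h, 7 genes were lower and none higher, against 42.2% of all genes (21.3% higher and 20.9% lower). Tnip1 fell from 234 ± 24.1 to 67.4 ± 4.44 CPM (-1.80, adjusted p = 0.000244), Zfp36l1 from 125 ± 26.9 to 49.9 ± 1.49 CPM (-1.32, adjusted p = 6.39e-05) and Tnip3 from 238 ± 23.9 to 102 ± 4.46 CPM (-1.23, adjusted p = 2.25e-05). Zc3h12a (-1.23), Tnfaip3 (-0.94), Zc3h12c (-0.76) and N4bp1 (-0.69) were the other 4. The Zc3h12a call was lost without untreated replicate 1 or 3 or without any isotype 24 h library (adjusted p up to 0.0778). Zfp36l2, at 128 ± 3.41 against 122 ± 4.59 CPM, Cyld, at 59.6 ± 2.38 against 54.9 ± 2.34 CPM, and Zfp36 (-0.48, adjusted p = 0.0933) did not pass the test.

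Whether the FcMR difference itself varied over 4, 12 and 24 h was tested jointly. It did for 2 of the 10 genes, Tnfaip3 (adjusted p = 0.00273) and N4bp1 (adjusted p = 0.019), against 11% of all genes. Comparing the 24 h difference with the 4 h one, 3 of 10 passed against 13.9% of all genes (8.19% higher and 5.72% lower at 24 h). The log2 FcMR difference of Tnfaip3 was 0.60 lower at 24 h than at 4 h (-0.60, SE 0.11, adjusted p = 0.00154). Those of N4bp1 (0.47, SE 0.107, adjusted p = 0.00738) and Cyld (0.64, SE 0.204, adjusted p = 0.0455) were higher at 24 h, the latter past the threshold in 7 of 23 alternatives and lost on leaving out any 1 of the 12 libraries other than isotype 4 h replicate 3 or FcMR 24 h replicate 3. The N4bp1 call was lost without FcMR 4 h replicate 3, with no filter and with only the libraries compared. No RNA-decay gene passed this test as first measured. Zc3h12a differed by -1.19 (95% interval -2.39 to 0.015), and by -1.87 without the libraries out of title order (adjusted p = 0.00354). Without those libraries Zfp36 passed too (-0.61, adjusted p = 0.0164). After GC correction Zc3h12a (-1.14, adjusted p = 0.0141) and Zc3h12c (-0.35, adjusted p = 0.0223) passed. Zfp36l1 and Zfp36l2 passed in neither setting. The joint adjusted p of Zc3h12a, 0.317, became 0.0281 after GC correction.

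The 2 groups of brakes were then set side by side. Of the 5 deubiquitinase-type genes 2, 3 and 4 were higher with FcMR at 4, 12 and 24 h and none lower. Of the 5 RNA-decay genes 2, 1 and 1 were higher and 1, 2 and 1 lower. Over all genes tested, 8.62%, 8.61% and 11.4% were higher and 9.13%, 7.49% and 9.44% lower. Each group holds only 5 genes, chosen with earlier results known, and the contrast between the groups was not tested. The median log2 differences were 0.25, 0.39 and 0.72 in the first group, 0.26, -0.40 and 0.03 in the second, and -0.07, -0.017 and 0.0064 over all genes tested. At each time the median of the first group was the value of N4bp1, so it depends on the placing of that gene. Summed per kilobase of transcript, the RNA-decay genes stood at 0.36, 0.365 and 0.487 times the deubiquitinase-type genes in the isotype libraries at 4 h and at 0.346, 0.305 and 0.291 times with FcMR. At 12 h the ratio was 0.891, 0.953 and 0.94 with isotype and 0.385, 0.458 and 0.439 with FcMR. At 24 h it was 0.895, 0.962 and 0.892 with isotype and 0.549, 0.552 and 0.495 with FcMR. The FcMR libraries were lower at all 3 times, and with Tnfaip3 left out of the sum this held at 12 h (1.22, 1.35 and 1.32 against 0.648, 0.71 and 0.675) and at 24 h. At 4 h, without Tnfaip3, the ratios were 0.595, 0.585 and 0.767 with isotype and 0.728, 0.699 and 0.702 with FcMR, and overlapped. The RNA-decay sums themselves, as means in CPM per kilobase, were 192, 128 and 89.2 with FcMR at 4, 12 and 24 h. With isotype they were 144, 150 and 95.6. The deubiquitinase-type sums were 611, 298 and 168 with FcMR and 355, 161 and 104 with isotype. A lower ratio thus does not by itself mean less RNA-decay mRNA, and no ratio was computed after GC correction.

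**Figure D4:**
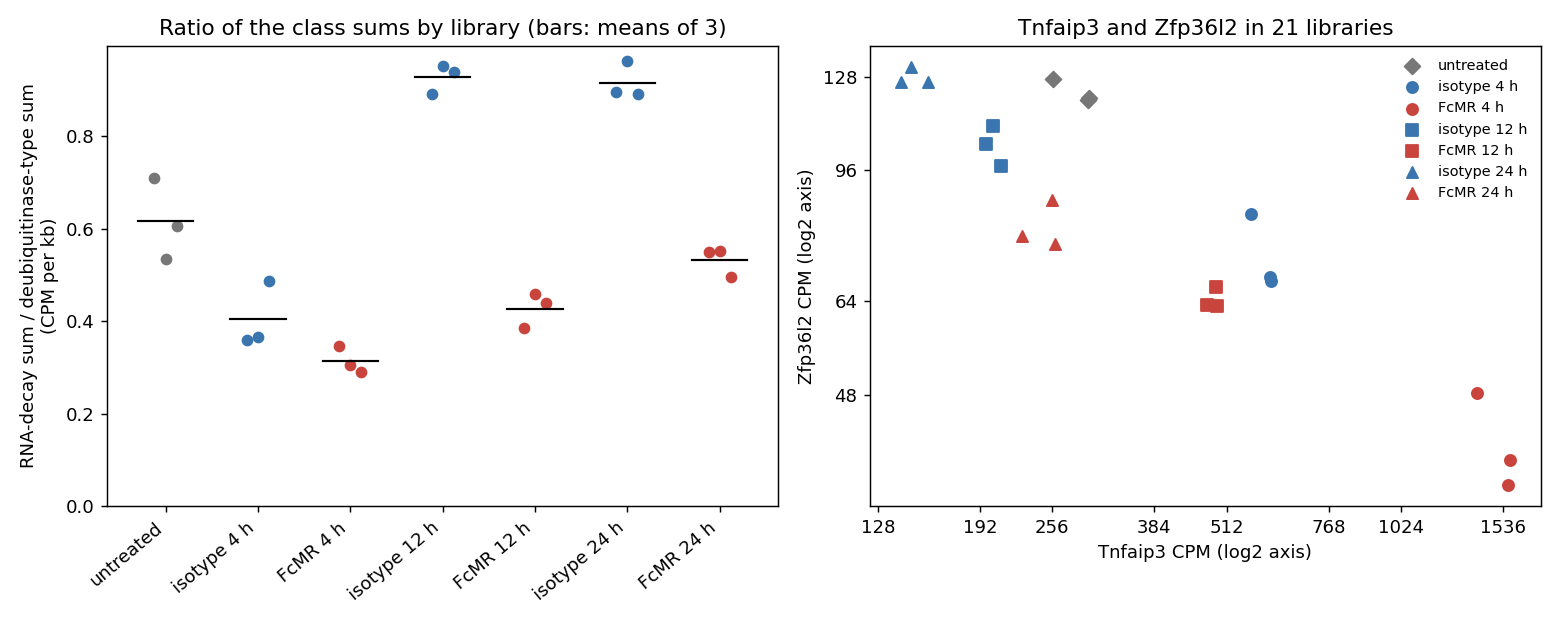
Left, summed level of the 5 RNA-decay genes over that of the 5 deubiquitinase-type genes (both in CPM per kilobase) in each library, with the mean of 3 as a bar. Right, Zfp36l2 against Tnfaip3 in CPM (log2 axes) in the 21 libraries; the ratio is 0.891 to 0.962 in isotype cells at 12 and 24 h, and FcMR 4 h libraries hold the highest Tnfaip3 and the lowest Zfp36l2.

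Levels per kilobase of transcript, without GC correction, set the genes beside each other. In untreated cells Tnip1 (78.7 ± 8.11 CPM per kb, SD, n = 3), Tnfaip3 (63.9 ± 5.03) and Tnip3 (63.2 ± 6.33) led, and Cyld was the lowest at 6.85 ± 0.291. GC correction took the mean CPM in untreated cells from 234 to 196 for Tnip1, from 283 to 302 for Tnfaip3 and from 238 to 261 for Tnip3. The order of these 3 genes is therefore not settled. With FcMR at 4 h Tnfaip3 reached 341 ± 24.8 CPM per kb, ahead of Tnip1 at 136 ± 9.75, and Zc3h12a stood at 51.5 ± 2.65, beside Zfp36 at 56 ± 9.55. In isotype cells at 24 h Zfp36l2 was first at 36.2 ± 0.965 CPM per kb, with Tnfaip3 at 33.4 ± 1.83. With FcMR at 24 h Tnfaip3 stood at 55.9 ± 3.92 and Zfp36l2 at 22.9 ± 1.68 CPM per kb.

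Over the 21 libraries, which share groups and their depth, log2 levels of Tnfaip3 ran with those of Zc3h12c (Pearson r = 0.98) and against those of Zfp36l2 (r = -0.91). The GC-rich pair Tnip1 and Zc3h12a had r = 0.93, and Zfp36 and Zfp36l1 had r = 0.72. These values are descriptions without a test. Among 11100 genes outside the set, the patterns most like Tnfaip3 were those of Sdc4 (r = 0.988), Vcan (0.987) and Dyrk2 (0.986). Those most like Zfp36 were Naif1 (0.936), Triobp (0.921) and Zfp319 (0.915), and those most like Zc3h12a were Kdm5c (0.968), Ppp1r15a (0.965) and Csrnp1 (0.963).

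Partners and targets were read from 3 lists of genes that are not members. Of 24 A20 partners and linear-ubiquitin genes, 5 were higher with FcMR at 4 h and none lower (20.8%, close to the 17.7% of all genes). The largest were Ikbkb, a kinase that frees NF-kappa-B (log2 0.62, adjusted p = 0.0011), Malt1, a paracaspase that cleaves A20 (0.50, adjusted p = 0.0116), Tab2, an adaptor for ubiquitin chains (0.49, adjusted p = 0.00888), and Rnf11, a member of the A20 complex (0.48, adjusted p = 0.0165). At 12 h 5 were higher and 1, Ripk3, lower (-0.52, adjusted p = 0.0213), and at 24 h 6 were higher, 25% each time against 16.1% and 20.9% of all genes. Median log2 differences were 0.09, 0.07 and 0.12.

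Of 25 mRNA decay partners tested (Zc3h12b did not pass the filter), 5 were higher at 4 h, 3 higher and 2 lower at 12 h, and 5 higher and 1 lower at 24 h, with medians of 0.039, 0.012 and 0.13. The shares called, 20%, 20% and 24%, were near the 17.7%, 16.1% and 20.9% of all genes. The largest at 4 h was Arid5a, which stabilises Il6 mRNA and opposes Regnase-1 (log2 1.37, SE 0.3, adjusted p = 0.00354). Mapkapk2, a kinase that inactivates tristetraprolin, followed (0.70, adjusted p = 0.000185), with the exonuclease gene Xrn1 (0.48, adjusted p = 0.0294) and the decapping gene Dcp2 (0.48, adjusted p = 0.0092).

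Of 18 mRNAs known as targets of the decay proteins, 17 were higher with FcMR at 4 h and none lower, 14 were higher at 12 h, and 12 were higher and 2 lower, Ccl2 (-1.94) and Nfkbid (-0.62), at 24 h. The shares called, in either direction, were 94.4%, 77.8% and 77.8%, against 17.7%, 16.1% and 20.9% of all genes. Median log2 differences were 2.66, 1.69 and 1.07. The largest at 4 h were Il23a (3.81, adjusted p = 8.86e-10), Csf2 (3.63, SE 0.564, adjusted p = 0.000314), Il6 (3.31, adjusted p = 3.85e-08) and Ptgs2 (3.18, adjusted p = 5.48e-09). Csf2 was near the floor with isotype, at a mean of 0.65 CPM, where 3 counts correspond to 0.327 to 0.542 CPM, and at 7.85 CPM with FcMR. At 12 h Csf2 (0.143 CPM with FcMR and 0.0202 with isotype) and Il23a (0.584 and 0.252) were near or under the floor. There 3 counts correspond to 0.045 to 0.449 CPM in the isotype libraries. The 12 h median lies between Csf2 (1.70, not called) and Ccl3 (1.68). The mRNA of Zc3h12a, whose product cuts several of the listed targets, differed by 1.62 at 4 h and that of Zfp36 by 0.26. All 3 lists were written with earlier results of these data known, so their direction is not independent evidence.

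**Figure D5:**
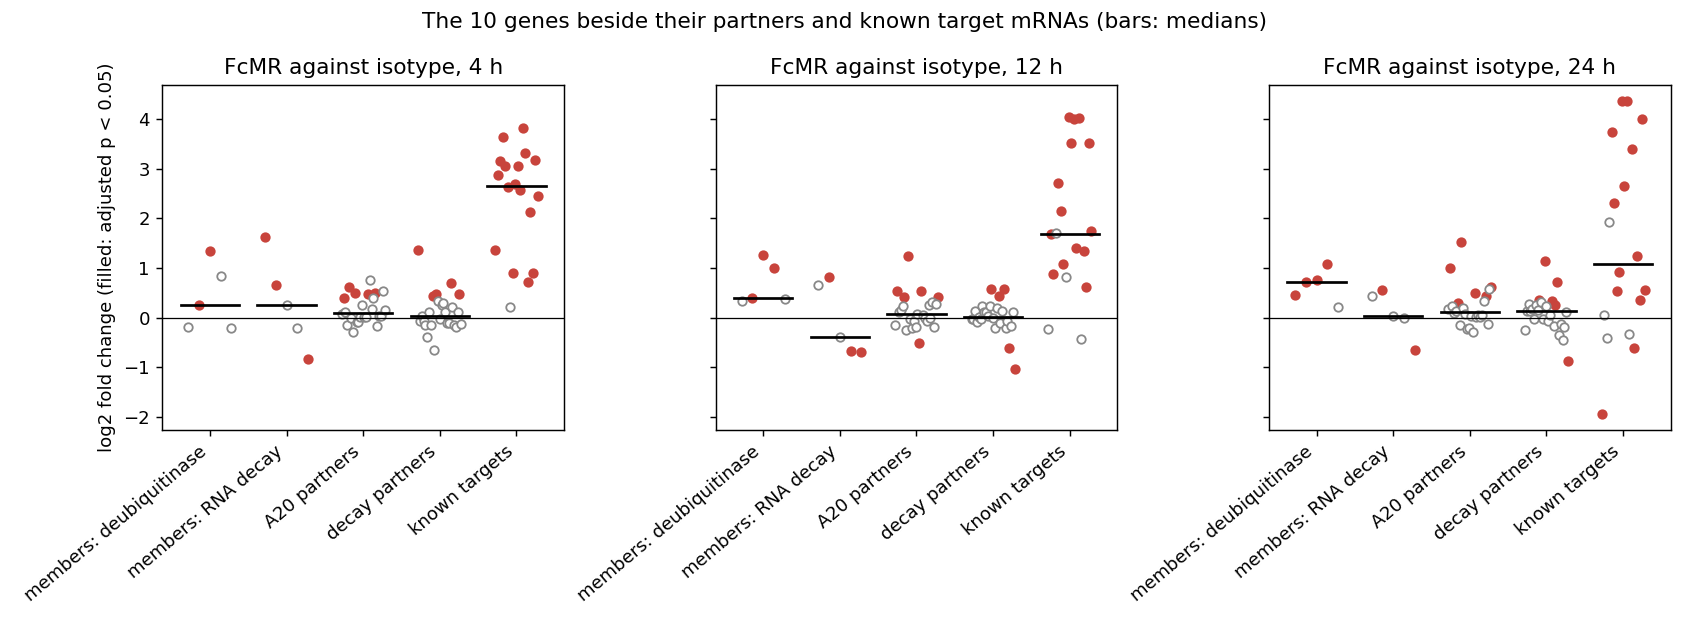
Log2 fold change of FcMR against isotype at 4, 12 and 24 h for the 5 deubiquitinase-type genes, the 5 RNA-decay genes, their partners and known target mRNAs, with the median of each as a bar (filled where the adjusted p is under 0.05). The target mRNAs have medians of 2.66, 1.69 and 1.07, and both partner lists have medians between 0.012 and 0.13.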

How the data were processed

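RNA was measured in 21 libraries (TruSeq RNA kit v2, 75 bp single-end reads). The submitters' processing notes name CASAVA 1.8.2, kallisto 0.44.0, DESeq2 and mm10/GRCm38, with no role or order. The authors deposited estimated counts for each gene, already as whole numbers. The second deposited table gives normalized signal, which equals the first divided by a factor of gene and library, and was used only for an alternative scaling. The plan had assumed counts, and its test also fits estimated counts. The 10 genes, the lists and the tests were chosen with earlier results of these data known.

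edgeR 4.0.16 (R 4.3.3) fitted 1 quasi-likelihood model of 7 groups with TMM scaling and filterByExpr (minimum 10 counts). Genes were called at a Benjamini-Hochberg adjusted p under 0.05 over 13468 genes. CPM are TMM-scaled, log2 levels use a prior count of 2, and errors are SD over 3 libraries or SE of the fold change. The SE of a gene uses its spread as estimated over all 7 groups together. Totals of 5532225 to 66729533 counts set the precision, and floors cover counting error only. No pair of replicate libraries looked like 1 library deposited again (the lowest ratio of chi-square to its degrees of freedom was 2.96).

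Positions and UTRs come from GENCODE M21, where 23187 of 23250 genes had a symbol. Lengths are of the longest basic coding transcript. GC correction used offsets from a spline of 6 degrees of freedom on transcript GC content. From each list at most 4 called genes with the largest change at 4 h were named, with 3 genes of the most similar pattern for Tnfaip3, Zfp36 and Zc3h12a. Alternatives were RLE factors, no filter or a mean of 10 counts, DESeq2 1.42.0, limma-voom (limma 3.58.1), the authors' factors, only the libraries compared, GC offsets, a replicate block, and leaving out libraries. The test was tried on simulated data, drawn without GC tilt, so that trial does not bear on how the tilt affects the calls. The kappa-B consensus was added after the promoters had been read. The 3′ untranslated region of 1 of the 10 genes is not reported here.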

Additional observations from a re-analysis of the deposited data

Results flagged for a closer look

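The FcMR difference of 2 genes varied over time in the joint test: Tnfaip3 (adjusted p = 0.00273) and N4bp1 (adjusted p = 0.019). Between 4 h and 24 h the log2 difference of Tnfaip3 moved by -0.60, while that of N4bp1 moved by 0.47 and that of Cyld by 0.64. Tnfaip3 stayed past the threshold of the joint test in 29 of 29 alternatives and N4bp1 in 24 of 29.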

How the results depend on the processing

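With only the libraries compared, members called numbered 3 for FcMR against isotype at 4 h, 8 for isotype against untreated at 12 h, 1 for the joint test over time and 1 for 24 h minus 4 h. Without both libraries out of title order they numbered 8 at 4 h, 5 in the joint test and 6 for 24 h minus 4 h. With no expression filter they numbered 2 for isotype against untreated at 12 h, 1 in the joint test and 1 for 24 h minus 4 h. GC offsets gave 5 in the joint test and 6 for 24 h minus 4 h, GC offsets with replicate block 7 and 6, and the authors' factors 1 in the joint test. Leaving out 1 library gave 4 to 7, 4 to 5 and 4 to 5 members for FcMR against isotype at 4, 12 and 24 h. It gave 5 to 6, 2 to 4 and 6 to 7 for isotype against untreated, 1 to 5 in the joint test and 1 to 4 for 24 h minus 4 h. The cause was not tested.

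Fold changes of single members kept direction and call in most alternatives; every one that turned sign was uncalled as first measured. Zfp36l1 for FcMR against isotype turned to 0.28 at 4 h with the authors' factors and to 0.05 without both libraries out of title order. At 24 h it turned to 0.014 with no filter, 0.15 with GC offsets, 0.13 with GC offsets and block, 0.0095 without both libraries and 0.0019 with limma-voom. Leaving out 1 library it ran from -0.44 to 0.07 at 4 h and from -0.032 to 0.07 at 24 h, and Zfp36 at 24 h from -0.0026 to 0.07. For isotype against untreated at 4 h, Tnip1 turned to 0.39 with GC offsets, with or without the block, and Zfp36 to -0.07 without both libraries. Zc3h12a there was -0.012 with RLE factors and with only the libraries compared, -0.07 with no filter, -0.10 with the replicate block, -0.65 without both libraries, -0.09 with limma-voom and -0.026 with DESeq2. Leaving out 1 library, Tnip1 ran from -0.57 to 0.22, Zfp36 from -0.07 to 0.45 and Zc3h12a from -0.66 to 0.30. For 24 h minus 4 h, Tnip1 was -0.29 without both libraries and -0.29 to 0.50 leaving out 1, and Zfp36l1 was -0.59 with the authors' factors, -0.045 without both and -0.08 to 0.45 leaving out 1.

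Same-numbered libraries showed no steady likeness. Correlations of their deviations ran from -0.166 to 0.338 over pairs and comparisons, and in no comparison did every library correlate best with its own number. With 3 libraries in a group, which also differ in GC tilt, a shared mouse or culture could be missed. With the replicate block 6 members were called for FcMR against isotype at 4 h (Tnip1 at an adjusted p of 0.0331) and 6, 6, 6, 5 and 7 in the later and isotype comparisons. Over all genes, those called for FcMR against isotype at 4 h numbered 2390, but 3781 with GC offsets, 3919 with the block added, 3898 without both libraries out of title order, 868 with only the libraries compared and 1589 without FcMR 4 h replicate 2. At 12 h they numbered 2169, but 3328 with GC offsets and 3482 with the block added, and for isotype against untreated at 4 h 4792, but 2881 with only the libraries compared. The joint test called 1484 genes, but 925 with no filter, 2920 with GC offsets, 3140 with the block added, 2616 without both libraries, 973 without FcMR 4 h replicate 2 and 2294 without isotype 4 h replicate 3. For 24 h minus 4 h 1873 were called, but 1199 with no filter, 3109 with GC offsets, 3305 with the block added, 1038 with only the libraries compared, 3713 without both libraries and 2831 without isotype 4 h replicate 3. With no expression filter the median log2 change moved by 0.12 for FcMR against isotype at 4 h. It moved by -0.12 for isotype against untreated at 4 h. That median also takes in the genes of low count, so it is not a shift of scaling alone. No other setting moved the median by over 0.1 in either direction.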
